A study of Trichosurus vulpecula with 116 samples.

Results

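Blood-forming and immune gene expression was compared between 3 spleen-like libraries and the livers of pouch young of the brushtail possum (*Trichosurus vulpecula*), a marsupial whose young finish most of their development in the pouch. The 3 spleen-like libraries, of 116 RNA-seq libraries in all, were the spleen of Sandy, a male pouch young of 22 days postpartum (dpp), and the libraries labelled liver of 2 other male pouch young, of 41 and 64 dpp, which the study left out of its own liver comparisons for poor mapping and RNA quality plots. The members were thus chosen by label and by measured likeness to spleen. They were set against the 12 other livers of pouch young of 15 to 70 dpp (3 females and 9 males, at 15, 17, 17, 19, 20, 22, 27, 30, 42, 45, 66 and 69 dpp). By its location label, the 20 dpp liver came from an animal of a captive colony, and no such label named a colony for the other 14 libraries. The labels name no treatment. Each liver came from a different animal, and the spleen and the 22 dpp liver came from the same animal. Ages of pouch young were staged from body measurements. The spleen group rested on 1 known spleen, and the libraries of Sandy together with the 45 and 69 dpp livers were made with the NEXTFLEX kit, while both left-out libraries and the other 9 livers were made with the NEBNext kit.

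The left-out libraries were selected on their likeness to spleen and on high levels of *SLC4A1*, the anion exchanger of the red cell membrane, and *KLF1*, a transcription factor that switches on red cell genes. Differences between the spleen-like libraries and the livers are therefore a description and carry no test. What was tested is the change of each gene with age within the 12 livers, which played no part in the choice.

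In newborn marsupials the liver is a site of blood formation, and this role passes to the spleen and then to the bone marrow as the young grow. Red cell precursors switch on globin genes, haem synthesis and a membrane skeleton under transcription factors such as KLF1, TAL1 and NFE2. The spleen joins this role to others: macrophages of its red pulp take up old red cells and recover their iron, and its white pulp gathers B and T lymphocytes around stromal cells.

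Each library held 9280579 to 30809447 reads on genes in the spleen-like libraries and 6802311 to 31780561 in the livers, and the 41 dpp left-out library was the shallowest of the 3. Reads on genes were 89.8%, 91.4% and 91.1% of the library total in the spleen of Sandy and the 41 and 64 dpp left-out libraries, an order of libraries kept below wherever 3 values stand together, and 84.7% to 95.5% in the livers. Levels below are log2 reads per 1000000 reads of the library total (log2 RPM) as deposited. They are not divided by gene length, so levels are compared between libraries and not between genes. A gene without reads was given the value of 0.9 read, which lies between -5.23 and -3.03 in these 15 libraries.

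The markers went against the liver label of both left-out libraries. *HNF4A*, a transcription factor of hepatocytes, had 0 to 2 reads in each spleen-like library and 272 to 3911 in each liver. Its lowest liver value was at least 103-fold above the spleen-like libraries when these are set to 3 reads. Alpha-fetoprotein (LOC118852573), the main plasma protein of the fetal liver, was at 3.08, -0.17 and -1.08, against 14.11 at the lowest, 15.08 at the median and 15.56 at the highest of the livers. All 22 hepatocyte genes in the table lay below every liver, and together they took 0.0064%, 0.0009% and 0.0009% of the library total, against 7.97% to 21% in livers. *AHSG*, the hepatocyte gene with the most reads, was at 4.0, 0.83 and -1.38, against 14.25 to 15.95 in livers.

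The spleen-forming transcription factors *TLX1* and *NKX2-5* ran the other way. *TLX1*, needed for the spleen to form in mice, was at 4.80, 3.68 and 4.42 and had 130 to 724 reads in each spleen-like library, against 0 to 9 reads in each liver. *NKX2-5*, which acts in both heart and spleen development, was at 5.10, 4.38 and 5.21 with 212 to 1251 reads, against 0 to 4 reads in each liver. Both passed the filter given below only through reads in the spleen-like libraries. The transcription factors *NKX3-2* and *BARX1* did not separate in this way. Against the liver matched on age and kit, *NKX3-2* differed by -3.15, -0.47 and -1.09 log2 units and *BARX1* by 3.8, -0.47 and -1.09. Their 41 and 64 dpp values are those of a gene without reads. *FOXN1* of thymus epithelium had no read in any of the 15 libraries, and *PTF1A* of pancreas had no read in the spleen-like libraries, while some genes listed for kidney, adrenal and gonad were read there, as given further on.

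Across 18944 genes, the 41 dpp library resembled the spleen of Sandy (Spearman 0.916) more than any other of the 13 tissues of Sandy, of which heart came next at 0.762, and more than any of the 12 livers (0.707 to 0.835). For the 64 dpp library the values were 0.958 with the spleen, 0.805 with lung, which came next, and 0.714 to 0.825 with the livers. The left-out libraries resembled each other at 0.932, and the liver of Sandy resembled the other livers at 0.901 to 0.973. These correlations are across genes, which are not independent replicates, and libraries of the same kit share technical features. Kidney of the same 41 dpp animal stood at 0.726 and its brain at 0.628. Bone marrow and thymus were not among the tissues compared.

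**Figure D1:**
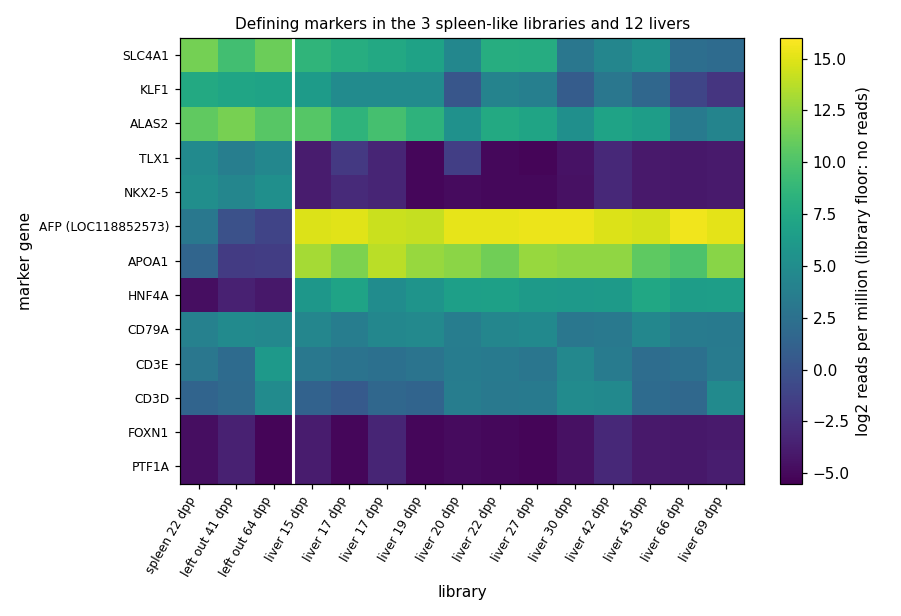
Log2 RPM (colour) of defining markers (rows) in the 3 spleen-like libraries, left of the white line, and in the 12 livers by age, right of it. The red cell genes *SLC4A1*, *KLF1* and *ALAS2* and the spleen genes *TLX1* and *NKX2-5* are brighter on the left than in every liver, the hepatocyte genes are dark on the left, and *FOXN1* and *PTF1A* lie near the floor, the value of a gene without reads, in all 15.

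Of 17020 genes that reached 3 reads in 3 or more libraries, 2898 (17.0%) lay above every liver in all 3 spleen-like libraries with means at least 1 log2 unit apart, called higher here, and 1375 (8.08%) lay below every liver, called lower. Scaling bears on this split. The median of all 17020 genes was 0.77 log2 units higher in the spleen-like libraries, and 67.8% of the calls were higher. When libraries were scaled to their 75th percentile the shift was 0.15 and the share 45.6%, and without the globin reads it was 1.12 and 80.3%. Medians of gene lists are therefore to be read against 0.77, and counts of higher genes against 17.0%. The share of all genes called higher was 9.85% under 75th percentile scaling, 15.3% with values below 0 set to 0 and 35.1% without the 41 dpp library, the shallowest of the 3, and counts under those settings are to be read against these shares. In bulk tissue, more cells of a type and more RNA per cell cannot be told apart. The genes nearest to the 1 log2 limit were *CCAR2* at 1.001 inside it and *DHX16* at 0.999 outside it.

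Red cell genes were higher as a group. Of 45 genes listed for red cell transcription factors, membrane, haem synthesis and other red cell functions, 40 were in the table, all 40 passed the filter, and 35 were higher and 0 lower, with a median difference of 4.0 log2 units. These include *SLC4A1* and *KLF1*, on which the libraries were chosen, and without them 33 of 38 were higher, with a median of 3.92. Their mean level was 8.65, 7.86 and 8.02 in the spleen-like libraries. In the livers it ranged from 6.83 at 15 dpp to 1.60 at 66 dpp and 1.62 at 69 dpp. The count of higher genes was 32 under 75th percentile scaling and 35 to 38 under the other settings tried.

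*SLC4A1* (chromosome 4, 191020877 to 191045211 of the study's possum assembly) was at 11.48, 9.5 and 11.17 in the spleen-like libraries and at 2.05, 6.14 and 8.60 in the lowest, median and highest liver. The groups did not overlap, and the means were 32.9-fold apart on the log2 scale. *KLF1* (chromosome 1, 75859641 to 75862032) was at 7.59, 7.15 and 6.95, against -2.17, 3.39 and 6.27 in livers, a 24.7-fold difference of means. As both genes marked the libraries, these values describe the choice.

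Besides *KLF1*, all 5 red cell transcription factors in the table were higher, with a median difference of 4.64 log2 units. *TAL1*, which starts the blood programme and later drives red cell genes, was at 10.35, 9.33 and 9.43, against 1.89, 5.64 and 7.94 in livers. *NFE2*, which acts on globin genes and in platelet formation, was at 7.42, 8.76 and 7.39, against -1.19, 3.90 and 6.69. *GFI1B*, a repressor in red cell and megakaryocyte precursors, was at 5.6, 3.10 and 5.0, against -4.14, 0.38 and 2.83, with no reads in the lowest liver. The highest liver was that of 15 dpp for each of these 3. *ZFPM1*, a partner of the GATA factors, differed least of these, by 2.81 log2 units.

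Besides *SLC4A1*, all 10 membrane and skeleton genes in the table were higher, with a median of 4.79 log2 units. *SPTB*, a chain of red cell spectrin, was at 10.28, 9.81 and 9.80, against 4.49, 6.57 and 8.33 in livers. *RHAG*, a gas and ammonium channel of the Rh complex, differed most, at 9.10, 7.13 and 8.64 against -2.17, 2.69 and 6.66. The blood group gene *KEL* differed by 5.14 log2 units and *ANK1*, which ties spectrin to the membrane, by 4.89.

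Haem synthesis and iron uptake genes were less uniform. Of 13 genes 8 were higher, with a median of 3.52 log2 units. *ALAS2*, the first enzyme of haem synthesis in red cells, was at 10.78, 11.60 and 10.45, against 3.36, 7.00 and 10.32 in livers. It lies on an unplaced scaffold and overlaps LOC118833381 on the other strand, and whether counting used strand is not given in the sources used here. *SLC25A37*, which carries iron into mitochondria, was at 11.46, 10.66 and 11.07, against 4.11, 7.09 and 9.64, and the transferrin receptor *TFRC* at 11.37, 9.78 and 10.30, against 3.58, 6.35 and 9.20. The 5 genes not called were *ALAD*, *UROS*, *UROD*, *FECH* and *STEAP3*. *ALAD* and *STEAP3*, a haem enzyme and an iron reductase that liver also uses, differed by 0.92 and 0.22 log2 units, while *FECH*, the last enzyme of the path, differed by 3.73 with 1 overlap, 8.31 in the 41 dpp library against 8.73 in the highest liver.

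The other 10 red cell genes in the table were all higher, with a median of 4.61 log2 units. *HEMGN*, a nuclear protein of red cell precursors, was at 12.16, 9.81 and 11.83, against 2.60, 6.11 and 9.80 in livers, so that the 41 dpp library lay just above the 15 dpp liver. *TRIM58*, which acts as red cells lose their nucleus, differed most, at 8.37, 6.75 and 7.14 against -2.76, 2.66 and 5.87. *BPGM*, which makes the ligand that lowers oxygen affinity of haemoglobin, was at 9.17, 8.67 and 8.76, against 4.75, 5.67 and 7.54. The erythropoietin receptor *EPOR* was at 7.35, 7.49 and 6.90, against -2.41, 3.09 and 6.15.

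Of the 8 globin genes in the table, the alpha, zeta and gamma types sit within positions 14602848 to 14665515 of chromosome 9, and the epsilon and adult beta types within 84585417 to 84611319 of chromosome 2. Together they took 10.6%, 37.5% and 21.4% of the library total in the spleen-like libraries and 0.0824% to 10.2% in livers. Nearly all came from the adult beta-type gene LOC118837956, which was at 16.62, 18.46 and 17.66, against 9.68, 13.49 and 16.63 in livers. The 41 and 64 dpp libraries were above every liver, and the spleen of Sandy was within 0.01 log2 units of a 17 dpp liver, so that gene was not called. The alpha-type genes LOC118831763 and LOC118831767 were higher, by 5.95 and 5.94 log2 units, and the alpha-type LOC118831015 was at 9.93, 11.44 and 10.60, against 1.79, 6.46 and 10.01. Only uniquely placed reads were kept, so reads of near-identical alpha genes can be lost or split and their values are uncertain. LOC118831763 ranged from -3.99 at 66 dpp to 7.93 at 69 dpp in livers.

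The embryonic zeta-type globins, 2 of the 8, set the left-out libraries apart from the spleen of Sandy. The zeta-type LOC118831092 was at 3.07 in the spleen of Sandy, -3.50 at 41 dpp and -1.91 at 64 dpp, and the zeta-type LOC118831117 at 1.06, -3.34 and -2.76. In livers the former ranged from -4.85 to 1.80 and the latter from -4.85 to 1.83. The epsilon-type LOC118838241 (4.94, 4.51 and 3.71) and the gamma-type LOC118831853 (4.06, 3.67 and 5.26) were present in all 3, and both overlapped livers, whose highest values were 6.92 and 5.88.

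**Figure D2:**
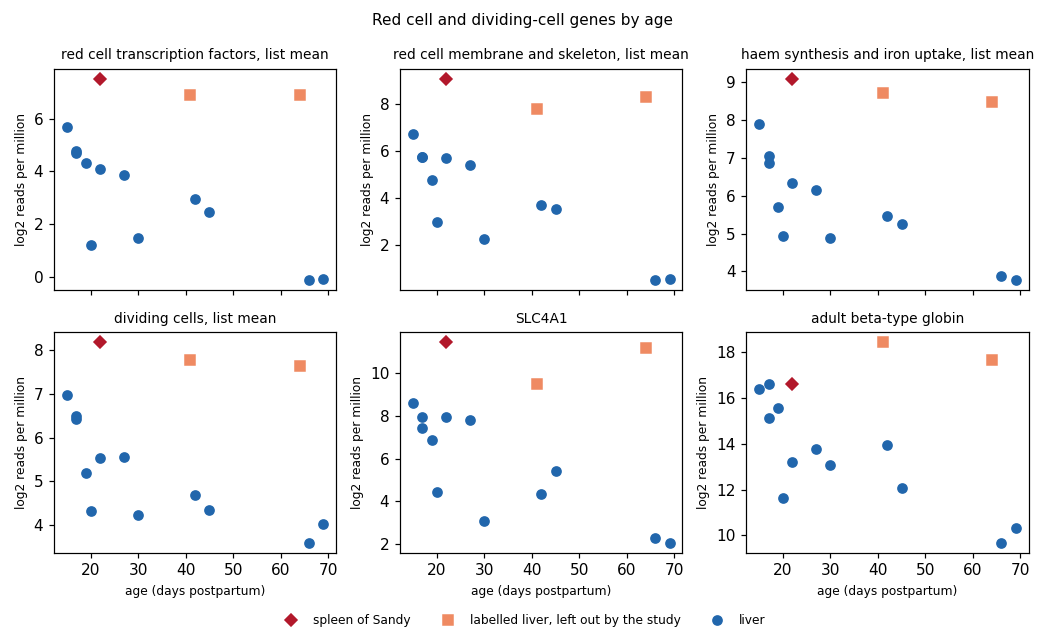
Mean of 4 gene lists (the top row and the lower left panel), *SLC4A1* and the adult beta-type globin LOC118837956 (vertical axes, log2 RPM) against age in dpp (horizontal axis), with 1 point a library. The livers fall with age, the 20 dpp liver lies below its neighbours, and the spleen-like libraries stay high at 22, 41 and 64 dpp.

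Within the 12 livers, 447 of 15463 genes (2.89%) fell with age and 30 (0.194%) rose by limma at an adjusted p under 0.05, and the median slope over all genes was -0.06 log2 units per 10 days. Of the 40 red cell genes, 26 fell and 0 rose, 39 slopes were negative and the median was -0.77. *SLC4A1* fell by 1.02 ± 0.20 log2 units per 10 days (SE, limma adjusted p = 0.0132) and *KLF1* by 1.15 ± 0.22 (limma adjusted p = 0.0114). The adult beta-type globin fell by 0.97 ± 0.19 (limma adjusted p = 0.0131), and 4 of 8 globins fell, or 7 of 8 without the 20 dpp liver. The 3 NEXTFLEX livers are of 22, 45 and 69 dpp. With kit as a covariate 22 of the 40 red cell genes fell, against 2.04% of all genes, and within the 9 NEBNext livers alone 0 did by limma at an adjusted p under 0.05, with 34 falling and 0 rising at an unadjusted p under 0.05, 39 negative slopes and a median of -0.81. With values below 0 set to 0, 0 of the 40 fell at the adjusted threshold, 37 fell at an unadjusted p under 0.05 and the median was -0.69. In those 9 livers *SLC4A1* had a slope of -1.09 (limma adjusted p = 0.113) and *KLF1* of -1.07 (limma adjusted p = 0.177), and over all genes fitted 2 (0.0134%) fell and 0 rose by limma, against 1558 and 271 at an unadjusted p under 0.05. Of all listed genes 55 of 226 fitted fell in the 12 livers, 1 of 216 (a globin) in the 9 NEBNext livers and 0 of 211 with values below 0 set to 0, so the falls given below for other lists are not called under either setting.

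Genes higher in the spleen-like libraries and genes falling with age overlapped in part. Of 2647 higher genes in the age fit, 213 fell with age, 8.05% against 2.89% of all genes, and these were 47.7% of the 447 falling genes. Both sets of values use the same 12 livers, so this is a count and not a test. The 19 dpp liver had 31% of its library total on 15 ribosomal RNA genes, with 18% on LOC118840599 alone, against 0.121% to 3.16% on that gene in the other 11 livers. The 20 dpp liver was low in red cell genes for its age, with a list mean of 3.22 between 4.93 at 19 dpp and 5.50 at 22 dpp, and was the one from the captive colony. Without the 20 dpp liver 900 genes fell and 74 rose, and without the 19 dpp liver 743 and 29, and the red cell genes that fell numbered 31 and 27. The part of ribosomal RNA and of captivity in these counts was not tested.

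Each spleen-like library has a liver of about its own age and of its own kit, a comparison added after the data were seen and given without a test. At 22 dpp, within Sandy, 7163 of 15589 genes (45.9%) were at least 1 log2 unit above the liver and 2358 (15.1%) below, with a median of 0.89. The median of the 40 red cell genes was 3.35, and 38 were above the limit. At 41 against 42 dpp, 4347 of 13759 genes (31.6%) were above and 2980 (21.7%) below, with a median of 0.37, and the red cell median was 3.96 with 38 above. At 64 against 66 dpp, 9158 of 15712 genes (58.3%) were above and 2138 (13.6%) below, with a median of 1.30, and the red cell median was 6.25 with 39 above. *SLC4A1* was higher by 3.55, 5.15 and 8.91 log2 units in the 3 pairs and *KLF1* by 3.52, 4.17 and 7.94. The difference was largest in the oldest pair, in which the liver was low: *KLF1* was at -0.99 in the 66 dpp liver and at 4.08 in the liver of Sandy.

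Platelet-forming megakaryocytes share precursors with red cells. Of their 10 genes in the table, 7 were higher and 0 lower, with a median of 4.67 log2 units. *ITGA2B*, the platelet fibrinogen receptor subunit, was at 8.01, 8.79 and 8.54, against 1.53, 4.04 and 5.87 in livers. *TREML1*, a receptor of platelet granules, was at 5.83, 6.72 and 6.55, against -2.99, 1.45 and 4.41. *F13A1*, a clotting factor subunit of platelets and macrophages, was at 8.32, 6.98 and 8.09, against -0.99, 2.58 and 5.75. *TUBB1* and *ITGB3* overlapped livers in the 41 dpp library alone, and *VWF*, also made by vessel walls, overlapped in both left-out libraries. With age in livers 4 of the 10 fell, *GP9*, *TUBB1*, *TREML1* and *F13A1*, against 2.89% of all genes.

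Stem and progenitor genes were less separated. Of 12 genes 2 were higher, *MEIS1* and *FLT3*, a share near the 17.0% of all genes, with a list median of 2.77 log2 units. *KIT*, the stem cell factor receptor, was at 6.46, 3.82 and 5.83, against -1.44, 1.83 and 3.89, so the 41 dpp library alone met the livers. *MYB*, a transcription factor of dividing progenitors, was at 6.37, 1.66 and 5.65, against -0.55, 1.54 and 5.09, and *PTPRC* (CD45), carried by all white cells, at 6.39, 4.21 and 8.08, against 1.49, 3.21 and 5.69. Without the 41 dpp library 9 of the 12 were higher, against 35.1% of all genes. Without globin reads 7 of the 12 were higher, where 4886 of all 17020 genes were. Against livers of 30 dpp and older 8 were, where 4744 of all genes were. *HLF*, at 2.77, 0.90 and 2.17, lay within the livers (-0.35 to 3.86). In livers *RUNX1*, *GFI1* and *SPN* fell with age, 3 of 11 fitted against 2.89% of all genes.

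Of 10 growth factors for blood cells 4 were higher and 2 lower, with a median of 1.38 log2 units. With values below 0 set to 0, 4 were higher and 0 lower, and without globin reads 5 and 1. The difference of their list means was 0.40 log2 units, and -0.21 under 75th percentile scaling. *KITLG*, the ligand of KIT, was at 6.70, 5.12 and 6.44, against -0.22, 1.82 and 3.78 in livers, a 21.4-fold difference of means. *CSF1*, which feeds macrophages, was at 7.26, 5.20 and 7.38, against 2.01, 3.76 and 4.97, and *TNFSF11* and *ANGPT1* were also higher, by 4.92 and 2.13 log2 units. *THPO*, a hepatocyte hormone that drives platelet formation, had no read in any spleen-like library and 8 to 191 in livers, at least 3.03-fold lower when the spleen-like libraries are set to 3 reads. *IL7*, a lymphocyte growth factor, was at -4.58, -3.50 and -1.27, against -1.17, -0.04 and 0.85. Erythropoietin (*EPO*) had 0 to 5 reads in spleen-like libraries and 1 to 96 in livers and was not called. *CXCL12*, which holds stem cells in their niche, was at 8.57, 6.77 and 9.74, against 5.52 to 8.45 in livers, so only the 41 dpp library met the livers. None of the 10 growth factor genes fitted passed the age test.

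Of 5 granulocyte and mast cell genes that passed the filter 0 were called against the 12 livers, with a median of 1.36 log2 units. Against the liver matched on age and kit, 5 of 5 at 22 dpp, 4 of 4 at 41 dpp and 5 of 5 at 64 dpp were at least 1 log2 unit higher, with medians of 1.61, 1.37 and 5.25, where 45.9%, 31.6% and 58.3% of all genes were. *PRTN3*, a protease of neutrophil granules, was at 6.76, 4.31 and 3.18, against -3.99, 3.78 and 9.02 in livers, and the eosinophil gene *EPX* was at 4.57, 3.42 and 5.42, against -3.99, 2.12 and 4.87. The highest liver was above all 3 spleen-like libraries for *PRTN3* and above 2 of them for *EPX*. In livers *PRTN3* fell by 1.69 ± 0.28 log2 units per 10 days (SE, limma adjusted p = 0.00585), *CEBPE*, a regulator of granulocyte maturation, by 1.37 ± 0.24 (limma adjusted p = 0.00770) and *EPX* by 1.17 ± 0.21 (limma adjusted p = 0.00905). The mast cell protease *CPA3* was at 5.47, 0.74 and 5.17, against -1.95, 0.97 and 3.61. Against the 66 dpp liver, *PRTN3* was 7.18 log2 units higher in the 64 dpp library, and in each of the other pairs it was 1.30 higher.

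**Figure D3:**
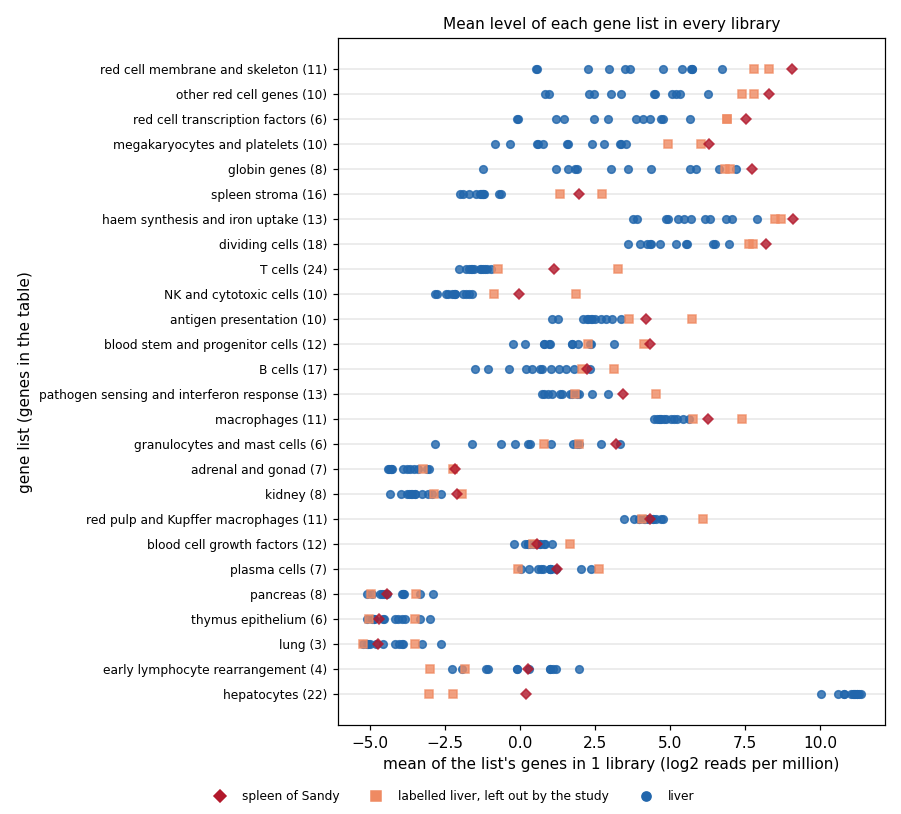
Mean level of each gene list (rows, with the number of genes in the table) in every library on a log2 RPM axis, with 1 point a library. Red cell, stromal and dividing-cell lists have all 3 spleen-like points right of the 12 livers, the T cell list reaches from -0.72 to 3.28 among the spleen-like points, and hepatocyte genes lie far to the left of the livers.

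General macrophage genes were separated in part. Of 11 genes 5 were higher, against 17.0% of all genes, and 0 lower, with a median of 1.71 log2 units. In the pairs matched on age and kit, 9, 3 and 10 of the 11 were at least 1 log2 unit above the liver. In each pair 1 was below, and 45.9%, 31.6% and 58.3% of all genes were above. *MPEG1*, a pore-forming protein of macrophages, was at 8.09, 8.78 and 9.47, against 4.55, 5.62 and 6.31 in livers. The complement subunit *C1QA* was at 7.86, 7.68 and 9.56, against 6.11, 6.72 and 7.14. *MRC1*, the mannose receptor, ran the other way at 4.77, 2.49 and 5.06, against 4.78, 6.69 and 7.86, and overlapped the lowest liver. Under 75th percentile scaling 1 of the 11 was higher and 1 lower, against 9.85% and 11.7% of all genes, and without the 41 dpp library 8 were higher, against 35.1% of all genes. None of them changed with age in the livers at the threshold of the limma fit.

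Of 11 genes of resident macrophages, 4 were higher, 1 was lower and 6 were not called, with a median of 1.40 log2 units. In the pairs matched on age and kit, 6, 5 and 7 of the 11 were at least 1 log2 unit above the liver and 4, 4 and 2 below. The medians were 1.21, 0.03 and 2.49, where 45.9%, 31.6% and 58.3% of all genes were above. *SPIC*, the transcription factor of red pulp macrophages, was at 5.44, 5.13 and 7.91, against -4.85, -1.10 and 0.92 in livers. *VSIG4*, the complement receptor of Kupffer cells, the resident macrophages of liver, was at 1.42, -1.76 and 3.63, against 7.09, 9.20 and 10.43. *HMOX1*, which breaks haem down, and *VCAM1*, which red pulp macrophages carry, were higher by 1.88 and 1.90 log2 units, and so was the haemoglobin scavenger receptor *CD163*, by 3.07. *CD5L*, made by resident macrophages, was at 7.33, 9.42 and 10.68, against 5.68, 6.74 and 7.79, so both left-out libraries were above every liver and the spleen of Sandy was not. The iron exporter *SLC40A1* (9.78, 7.74 and 9.71) and the Kupffer cell lectin *CLEC4F* (1.30, 2.83 and 3.13) overlapped livers, at 5.36 to 8.56 and 2.00 to 4.82. The lower gene was *VSIG4*, 1 of 11 against 8.08% of all genes, and the difference of the list means was 0.61 log2 units, or -0.00 under 75th percentile scaling. *CD163* alone fell with age.

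**Figure D4:**
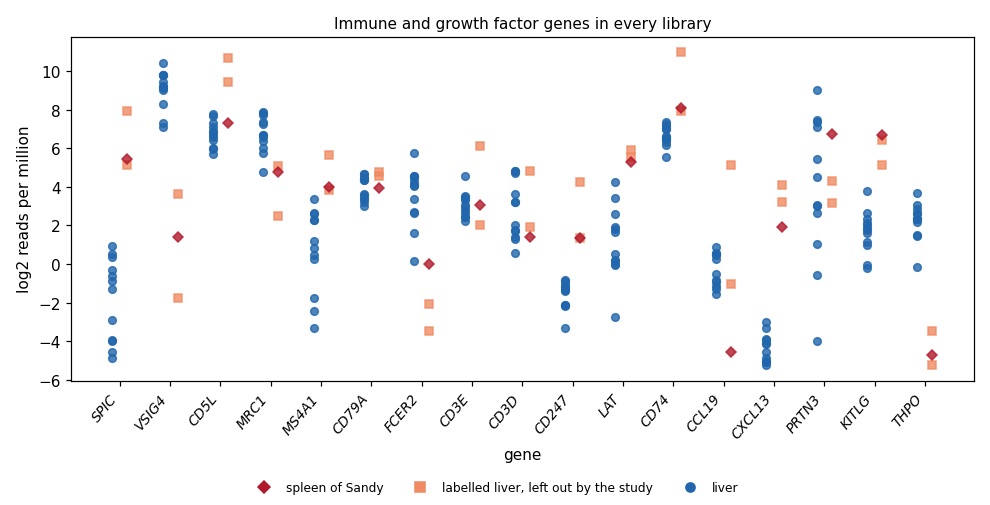
Log2 RPM (vertical axis) of 17 immune and growth factor genes (horizontal axis) in the spleen of Sandy (diamonds), the left-out libraries (squares) and the 12 livers (circles). *SPIC*, *CD247*, *LAT*, *CXCL13* and *KITLG* lie above all livers and *VSIG4*, *FCER2* and *THPO* below, while *CD3E*, *CD3D* and *CCL19* are high in the 64 dpp library alone among the spleen-like libraries.

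B cell genes were partly separated. Of 17 genes 6 were higher, against 17.0% of all genes, and 1 lower, with a median of 2.32 log2 units. Of the 16 that reached 3 reads in 3 livers 5 were higher. *MS4A1* (CD20), a surface protein of mature B cells, was at 3.97, 3.84 and 5.67, against -3.31, 1.02 and 3.35 in livers, and *CD22* and *BANK1*, which set B cell receptor signalling, were higher by 3.33 and 3.46 log2 units. *TNFRSF13B*, a receptor for B cell survival ligands, had 9 to 126 reads in the spleen-like libraries and 0 to 14 in livers, and passed the filter only through the spleen-like libraries. The antigen receptor subunit *CD79A* did not separate the groups, at 3.96, 4.77 and 4.57 against 2.99, 4.0 and 4.67. The low-affinity IgE receptor *FCER2* was lower, at 0.01, -3.50 and -2.08 against 0.16, 4.09 and 5.78. Under 75th percentile scaling 3 of the 17 were higher and 1 lower.

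B cell genes also fell with age in livers, 6 of 16 fitted, against 2.89% of all genes. *PAX5* and *EBF1*, which fix B cell identity, fell by 1.02 and 1.10 log2 units per 10 days, and *CD79B*, *BLK* and *CD22* also fell. With kit as a covariate and under 75th percentile scaling 3 of the 16 fell in each case, against 2.04% and 3.04% of all genes. Of the 4 genes of early lymphocytes, which rearrange antigen receptors, 0 were higher and 1 was lower. *RAG1* was at 2.73, -3.34 and -0.27, against -3.91, -0.43 and 3.42 in livers, and *DNTT* was at 0.81, -1.76 and -0.91, against -3.99, -0.39 and 3.16. Among spleen-like libraries both were highest in the spleen of Sandy, the youngest. *PTCRA*, the pre-T cell receptor subunit, had 0 to 2 reads in spleen-like libraries and 31 to 136 in livers, at least 9.48-fold lower against 3 reads.

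Plasma cell genes gave 0 higher and 2 lower of 6. The lower genes were *XBP1*, a secretion regulator that hepatocytes also use, at 4.30, 4.10 and 4.79 against 5.79, 6.67 and 7.25, and *SDC1*, a surface proteoglycan also of epithelia, at 0.63, -3.34 and 1.15 against 2.70, 4.99 and 6.34. *JCHAIN*, which joins secreted antibodies, was at 3.97, 3.49 and 6.61, against -2.17, 2.94 and 5.21, and fell with age in livers by 0.96 ± 0.18 (limma adjusted p = 0.0102). *MZB1*, at 2.09, 3.01 and 3.71 against -1.41, 1.38 and 3.01, fell by 0.55 ± 0.14 (limma adjusted p = 0.0440).

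T cell genes were highest in the 64 dpp library. Of 23 genes that passed the filter, of 24 in the table, 9 were higher, against 17.0% of all genes, and 0 lower, with a median of 3.05 log2 units, and the list mean was 1.14, -0.72 and 3.28, against -2.04 to -0.95 in livers. The receptor subunit *CD3E* was at 3.05, 2.05 and 6.11, against 2.21, 3.01 and 4.54, and *CD3D* was at 1.40, 1.90 and 4.84, against 0.56, 2.63 and 4.85. In the pairs matched on age and kit, *CD3D* differed by -1.82, -2.80 and 3.08 log2 units. *CD3G* differed by -1.755, -3.11 and 3.18 and *CD3E* by -0.26, -1.36 and 3.66. Of the T cell genes compared in each pair, 18 of 22, 5 of 10 and 24 of 24 were at least 1 log2 unit above the liver. Below it by as much were 2, 4 and 0, and 45.9%, 31.6% and 58.3% of all genes were above. The 3 CD3 genes did not separate the groups. Some signalling genes did: *CD247* was at 1.33, 1.36 and 4.26, against -3.31, -1.31 and -0.85, *LCK* at 1.76, 0.56 and 4.82, against -2.16, -0.67 and 0.18, and *CD5* at 1.25, 0.12 and 3.49, against -4.70, -2.65 and -0.92. *CD4*, also carried by macrophages, was at 4.05, 2.38 and 3.42, against -1.25, 0.24 and 2.15, and *CD8A* had 5 to 79 reads against 0 to 4. *LAT*, an adaptor shared with platelets, was at 5.30, 5.92 and 5.53, against -2.76, 1.11 and 4.28, and alone of the 14 T cell genes fitted fell with age (0.81 ± 0.16, limma adjusted p = 0.0126). Of the 19 that reached 3 reads in 3 livers 6 were higher. The other 4 passed the filter only through reads in the spleen-like libraries, so that a difference was built into their passing. Of these 4, 3 were called higher. With values below 0 set to 0, 5 of the 23 T cell genes were higher, against 15.3% of all genes, and without the 41 dpp library 17 were, against 35.1%.

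Cytotoxic and NK cell genes were few in reads. Of 10 genes 3 were higher, *NCR3*, *CTSW* and *CD160*, against 17.0% of all genes, and 0 lower, with a median of 2.68 log2 units. *NCR3*, an activating receptor of NK cells, had 7 to 104 reads in spleen-like libraries and 0 to 4 in livers. *NKG7*, a cytotoxic granule protein, was at 2.2, 2.24 and 1.98, against 0.65, 1.80 and 2.86. *IL2RB*, a receptor subunit for IL-2 and IL-15, was at 1.44, -1.76 and 3.85, against -3.91, -2.47 and -0.14. Of the 7 that reached 3 reads in 3 livers 2 were higher. The other 3 passed the filter only through reads in the spleen-like libraries, and 1 of these was called higher. With values below 0 set to 0, none of the 10 was higher, and without the 41 dpp library 7 were, against 35.1% of all genes. None of the 6 fitted passed the age test.

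Antigen presentation and pathogen sensing were highest in the 64 dpp library. *CD74*, the class II invariant chain, was at 8.07, 7.95 and 10.97, against 5.54, 6.60 and 7.34 in livers. *CTSS*, a protease that trims it, was at 7.09, 6.45 and 9.08, against 3.68, 5.41 and 6.03. *TAP1*, the peptide transporter, was the other of 3 higher genes out of 10, against 17.0% of all genes (list median 2.37 log2 units). The class I light chain *B2M* was at 8.74, 7.95 and 10.57, against 7.15, 7.79 and 8.93. Of 13 sensing and interferon genes 1 was higher, against 17.0% of all genes. It was *STING1*, a sensor adaptor for cytosolic DNA, at 5.12, 4.0 and 5.90 against 1.73, 2.42 and 3.62. *TLR8*, a receptor for single-stranded RNA, was at 7.05, 4.03 and 7.63, against 2.17, 3.19 and 5.77, so only the 41 dpp library met the livers. Without that library 7 of the 10 presentation genes and 9 of the 13 sensing genes were higher, against 35.1% of all genes. *NLRC5* and *PSMB9*, which serve class I presentation, fell with age in livers.

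Of the 16 stromal genes, 14 passed the filter, and of these 9 were higher, against 17.0% of all genes, and 0 lower. Of the 14, 5 passed only through reads in the spleen-like libraries, so that a difference was built into their passing. Among the higher genes were 4 of these 5. Of the 9 that reached 3 reads in 3 livers, 5 were higher, and none of the 9 passed the age test. Besides *TLX1* and *NKX2-5* the higher genes included *NKX2-3*, which shapes spleen vessels, with 27 to 282 reads against 0 to 2 in livers, at least 6.50-fold higher against 3 reads. *WT1*, needed for spleen development, was at 5.31, 3.62 and 4.29, against -2.84, -0.34 and 1.17. *TCF21*, of spleen mesenchyme, was at 4.94, 4.41 and 5.41, against 1.67, 2.71 and 3.58.

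Chemokines of the white pulp differed among the spleen-like libraries. *CXCL13*, which draws B cells into follicles, was at 1.93, 3.21 and 4.09 with 91 to 577 reads and had no read in any liver, so it was at least 9.31-fold higher against 3 reads. Like *NKX2-3*, it passed the filter only through reads in the spleen-like libraries, so that a difference was built into its passing. *CCL19*, which draws T cells, was at -4.58, -1.02 and 5.14, against -1.57, -0.14 and 0.88, and *CCL21*, with the same receptor, was at -1.12, -1.76 and 2.61, against -5.22, -4.36 and -0.76. The 64 dpp library alone was above all livers for both. *LTB*, the lymphocyte signal that organises this stroma, was at 3.0, 5.12 and 5.28, against -1.41, 0.49 and 1.83, and *CCR7*, the receptor of CCL19 and CCL21, at 2.05, -1.02 and 4.71, against -3.31, -0.92 and -0.09.

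Dividing-cell genes were higher in 14 of 18 cases and lower in 0, with a median of 2.81 log2 units. *MKI67*, a protein of cycling cells, was at 10.94, 10.45 and 10.19, against 4.40, 7.16 and 8.85 in livers. *TOP2A*, which untangles chromosomes, was at 10.48, 9.89 and 9.83, against 5.27, 6.35 and 8.71. All 18 slopes were negative in livers and 2 passed, *MKI67* (-0.64 ± 0.13 log2 units per 10 days, limma adjusted p = 0.0148) and *MCM2* (-0.45 ± 0.11, limma adjusted p = 0.0440). Without the 20 dpp liver 13 of the 18 fell, against 5.9% of all genes, and without the 19 dpp liver 8 did, against 4.86%.

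Genes listed for other organs were read in part. The 8 kidney genes summed to 13.8, 2.46 and 8.22 RPM, against 0.22 to 7.14 in livers. Of the 2 that passed the filter 0 were called, with *CUBN*, a receptor also found outside kidney, at 3.22, 1.18 and 2.10 against -3.16, -0.15 and 2.81. Of the adrenal and gonad genes, *STAR* and *NR5A1* were higher, with 7 to 126 and 9 to 98 reads in spleen-like libraries against 0 to 6 and 0 to 12 in livers. *STAR* passed the filter only through the spleen-like libraries, and with values below 0 set to 0 neither was called. The 7 genes of that list in the table summed to 5.48, 2.17 and 6.65 RPM, against 0.00 to 0.60 in livers, and *NR5A1*, which is also needed for spleen vessels, had the most reads. Lung epithelium genes (*SFTPC*, *SFTPB* and *NAPSA*) summed to 0.00 in each spleen-like library.

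Outside the lists, the genes with the largest differences upward were *KAZALD1*, *GFRA3*, *FRZB*, LOC118840815 and LOC118848815. *KAZALD1*, a secreted protein related to growth factor binding proteins, was at 6.59, 5.74 and 7.14, and had 0 or 1 read in each liver, at least 130-fold higher against 3 reads. It lies on chromosome 8 from 113664872 to 113668688, the chromosome that holds *TLX1* from 113565645 to 113572653. *GFRA3*, a co-receptor for a neural growth factor, was at 6.88, 4.25 and 7.35, against -5.22, -3.89 and -1.59, and the Wnt antagonist *FRZB* at 6.01, 4.75 and 6.10, against -5.22, -4.32 and -1.99. LOC118840815 and LOC118848815 had no read in any liver and were at least 39.5-fold and 40.2-fold higher. *KAZALD1*, LOC118840815 and LOC118848815 passed the filter only through reads in the spleen-like libraries, so that a difference was built into their passing. Their place in this ranking is a description only. Downward, the largest were LOC118853890, the gene with the most reads in each liver of 20 dpp and older, LOC118841094, *ITIH2*, LOC118841638 and the vitamin D binding protein *GC*, with differences from -15.02 to -14.22 log2 units.

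Among genes that changed with age in livers, the steepest falls were LOC118831989, *SERPINB11*, *PRTN3*, LOC118836373 and LOC118847993, between -1.74 and -1.65 log2 units per 10 days. In the spleen-like libraries *SERPINB11* was at 5.67, 1.05 and 0.62, inside the liver range of -3.99 to 6.40, and LOC118831989 at 7.23, 7.29 and 3.81, inside -2.99 to 11.34. None of these 5 was called higher. The steepest rises were *INHBB* and *SALL1*, a subunit of activins and a zinc finger factor, with LOC118840981, LOC118828118 and LOC118857128. *INHBB* rose by 0.96 ± 0.20 log2 units per 10 days (SE, limma adjusted p = 0.0174) from 0 to 74 reads, with 0 reads in each spleen-like library.

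Within the spleen-like libraries, the left-out ones were set against the spleen of Sandy, from which they differ in animal, age and kit, which cannot be told apart. Of 15510 genes that reached 10 reads in any of these libraries, 293 (1.89%) were at least 2 log2 units above the spleen in both and 486 (3.13%) below, and the medians of all genes were -0.94 at 41 dpp and -0.22 at 64 dpp. The balance depended on scaling. Under 75th percentile scaling 366 were above and 328 below, with medians of -0.34 and 0.02, and without globin reads 350 and 342. No gene of the 4 red cell lists, the megakaryocyte list or the dividing-cell list was called. T cell genes were at a median of -1.79 at 41 dpp and 2.49 at 64 dpp, and antigen presentation at -0.71 and 1.74. At 41 dpp the latter lay above the -0.94 of all genes in that library. *CD5L* and *MARCO*, a scavenger receptor of macrophages, were above it in both, *MARCO* at -1.26, 1.05 and 5.97. In both, 12 of 17 hepatocyte genes were below the spleen, 2 of 8 globins (both zeta-type), and *RAG1* and *RAG2*, which cut antigen receptor genes.

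Of the genes outside the lists with the largest differences between left-out libraries and the spleen of Sandy, some also differed between kits within the livers and others differed little. LOC118828976 was at -4.58, 7.28 and 6.88, and its mean was 5.06 log2 units lower in NEXTFLEX than in NEBNext livers. *EXOC1L* was at -4.73, 4.50 and 3.34, and 6.05 lower in NEXTFLEX livers. LOC118852096, at 5.68, -3.50 and -4.08, was 8.73 higher in NEXTFLEX livers. *DECR2*, a peroxisomal enzyme of fatty acid breakdown, was at 8.43, 0.12 and 2.12, and the fibrillin *FBN3* at 3.06, -3.50 and -5.08, with kit differences in livers of 0.90 and 0.43.

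Among the 13 tissues of Sandy, with 1 library each, 2497 of 18775 genes (13.3%) were highest in spleen. For the 4 red cell lists the spleen was highest and the liver next, with 38 of 40 genes highest in spleen and list means 2.77 to 3.42 log2 units above the liver. All 8 globin and all 18 dividing-cell genes were highest in spleen. Spleen also led for macrophage, B cell and antigen presentation lists, by 1.25, 0.92 and 0.36 log2 units over the next tissue. Lung led for T cell, NK cell and pathogen sensing lists, with spleen next, and at 22 dpp *CD3E* in spleen (3.05) ranked the fifth of 13, with 3.63 in lung and 3.31 in liver. Stomach led for the spleen stroma list, at a mean of 2.41 against 1.97 in spleen, and 4 of its 16 genes were highest in spleen. Liver led for the resident macrophage list, at 4.45 against 4.33. *NKX2-5* was highest in heart at 8.00 with spleen next at 5.10, and *TLX1* was at 4.80 in spleen and at -2.04 in eye, the next tissue.

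**Figure D5:**
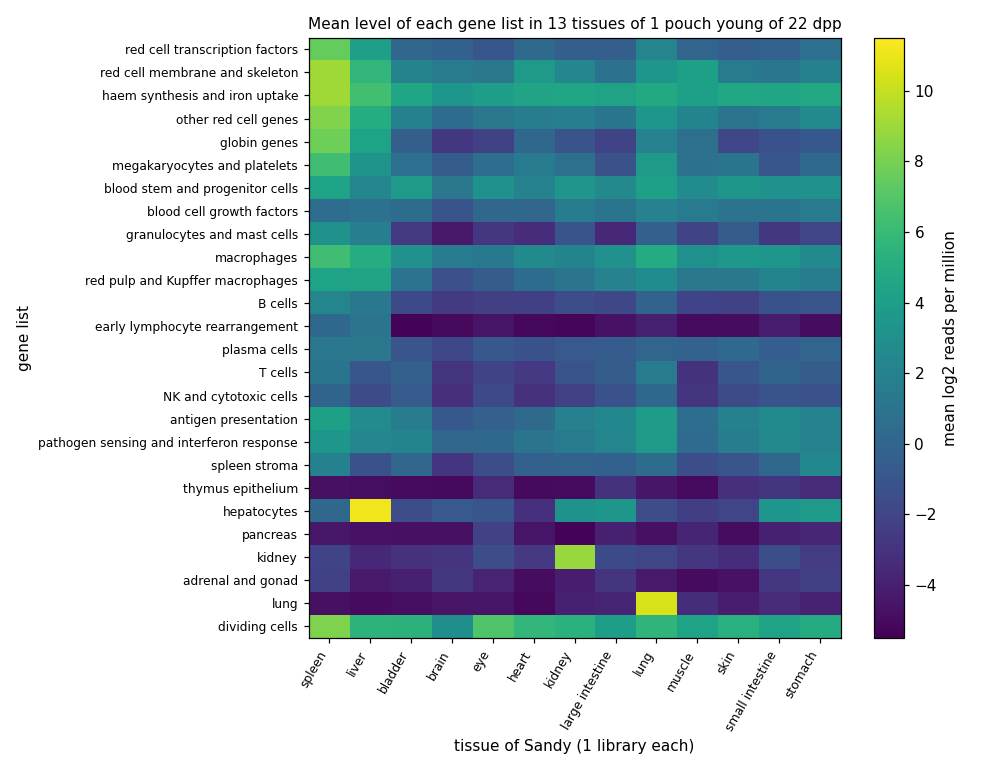
Mean level (colour, log2 RPM) of each gene list (rows) in the 13 tissues of Sandy (columns), spleen first and liver next. Red cell, globin and dividing-cell lists are brightest in spleen, hepatocyte, kidney and lung lists mark their own tissues, and T and NK cell lists are about as bright in lung as in spleen.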

How the data were processed

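The deposited table holds log2 values for 23816 genes in 116 libraries. Per the study's methods, the authors made poly(A)-enriched libraries, trimmed reads with Trim Galore 0.6.7, mapped them to the possum genome with HISAT2 2.2.1 and counted uniquely mapped reads in SeqMonk. The authors' methods name the values RPKM, but they give whole reads (within 0.02 of a read, 100.0% of values under 200 reads) without division by gene length, with 0.9 read in place of 0, so the deposited log2 values were used as log2 RPM. Groups came from the labels. The contrast of 3 spleen-like libraries with 12 livers and that of the left-out libraries with the spleen of Sandy have no test. Age slopes were fitted with limma 3.58.1 in R 4.3.3 without covariates on genes with 3 reads in at least 6 livers, with Benjamini-Hochberg adjustment over 15463 genes. The fit was also run on simulated counts that held no kit, ribosomal RNA or globin effects, so that run does not cover these. The p-values measure the spread among 12 animals.

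Members and the 26 gene lists were chosen with earlier results of these data known. Of 346 listed genes, 283 were in the table; the others, such as *GATA1*, *MPO* and *ALB*, were not analysed here. Named genes were *SLC4A1*, *KLF1*, the globins, defining markers, for each list the 3 with the highest mean in spleen-like libraries and the one with the largest difference each way, and outside the lists the 5 largest each way in each comparison; other list members named in the text were added after their values were seen. All 23435 names matched RefSeq symbols. Alternatives were flooring, scaling, filters, kit, age range and left-out libraries; scaling without globin reads, leaving out the 19 or 20 dpp liver and flooring on genes with a mean above 0 were chosen after seeing the data, as were the pairs matched on age and kit. Depth limits genes of few reads, most in the shallowest liver (6802311 reads on genes). The most alike livers (Pearson 0.978 across genes) differed beyond sampling noise, so none was counted as a copy. Bone marrow, thymus and livers without an age were not analysed here. Values of some members of the lists are not reported here.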

Additional observations from a re-analysis of the deposited data

How the results depend on the processing

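The 2898 genes higher and 1375 lower in the spleen-like libraries became 1677 and 1999 under 75th percentile scaling, of which 1627 and 1373 were shared with the original calls. They became 8236 and 2476 in the NEXTFLEX libraries alone, 4744 higher against livers of 30 dpp and older, and 4886 higher without globin reads (added after seeing the data). Leaving out 1 spleen-like library at a time gave 3061 to 5966 higher and 1485 to 1566 lower, the 5966 without the 41 dpp library, whose depth was the lowest of the 3. The 30 rising and 447 falling genes of the age fit in livers became 1 and 0 by limma with values below 0 set to 0 (361 and 2021 at an unadjusted p under 0.05), with prior degrees of freedom of 2.43 instead of 4.76, but 27 and 344 among genes with a mean above 0 (added later). They became 53 rising with 75th percentile scaling, 7 rising with kit as a covariate, 0 rising and 2 falling by limma in the 9 NEBNext livers alone (271 and 1558 unadjusted), and 1898 rising and 3767 falling in all 31 pouch young livers with an age. Without the 20 dpp liver 74 rose and 900 fell, and without the 19 dpp liver 743 fell (both added later). Left-out libraries against the spleen of Sandy gave 53 higher and 186 lower, instead of 293 and 486, with values below 0 set to 0. They gave 366 and 328 under 75th percentile scaling, and 350 and 342 without globin reads (added later). The cause of these shifts was not tested, apart from those the setting makes itself (fewer libraries or genes, higher floor). Counted over named genes and settings together, a difference between spleen-like libraries and livers kept its call status in 1545 cases, lost the call in 12 and gained it in 107, and an age slope in 1053, 93 and 68 cases, with no called value reversed. Among list means, those of red pulp and Kupffer macrophages moved from 0.61 to -0.00 and of growth factors from 0.40 to -0.21 under 75th percentile scaling. For a fit with a replicate block, no paired analysis was possible because the replicate numbers were given in accession order and pair no samples; the 3 pairs matched on age and kit are differences of single libraries without a test, and of these only the 22 dpp pair is 1 animal.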
